A study of Mus musculus with 11 samples.

Results

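Levels of 9 transcription factor genes of the adipogenic program were examined in gonadal white adipose tissue (WAT) of mice fed a high fat diet (HFD) with or without iodomethylcholine (IMC). The genes were chosen by symbol, namely Pparg, Rxra, Nr1h3, Cebpa, Cebpb, Cebpd, Klf14, Klf15 and Ebf1, and all 9 were among the 12787 genes listed in the expression table. IMC is a small molecule that blocks the gut bacterial enzyme forming trimethylamine (TMA) from choline. Male C57BL/6J mice received the 60% fat diet for 20 weeks, either alone (HFD control mice 2 to 6, n = 5, named vehicle in the labels) or with IMC mixed into it at 0.06% by weight (IMC-treated mice 7 to 12, n = 6). The study's notes state that a further control sample failed quality control and was dropped. Each mouse gave 1 library, so the p-values below measure the spread between these mice. The paper states that mice were housed in groups, with several cages per condition. The cage of each mouse was not given in the sources used here. The tests therefore treat the mice as independent, and effects of cage and treatment cannot be told apart. A value is given as log2 CPM, the log2 of a gene's reads relative to the library size as scaled by the authors, and a difference of 1 is a doubling.

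The adipogenic program is a cascade of transcription factors. C/EBPβ and C/EBPδ, encoded by Cebpb and Cebpd, act early and switch on Pparg and Cebpa, whose products then maintain each other and the genes of the mature fat cell. PPARγ binds DNA as a heterodimer with RXRα (Rxra), which is also the partner of the oxysterol receptor LXRα (Nr1h3), while EBF1, KLF15 and KLF14 are further regulators of fat cell formation and fat cell genes.

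The promoters of Pparg, Cebpa and Klf15 are shown first. C/EBP proteins act on Pparg directly, and all 3 genes were higher in IMC-treated mice. Rxra, Nr1h3 and Ebf1 were higher too, and their sequences are not printed. RefSeq entries of mouse build GRCm38.p6, with 250 bases ahead of the start site, were found for 7 of the 9 genes and not for Cebpd and Klf14. The Pparg entry is that of the downstream start site, from which the fat cell isoform begins. Capitals mark letter matches on either strand to TTGCNNAA (the C/EBP motif), AGGTCA (the nuclear receptor core motif), CACGTG (the E-box) or TATAA.
Pparg, chr6:115421816-115422065, plus strand: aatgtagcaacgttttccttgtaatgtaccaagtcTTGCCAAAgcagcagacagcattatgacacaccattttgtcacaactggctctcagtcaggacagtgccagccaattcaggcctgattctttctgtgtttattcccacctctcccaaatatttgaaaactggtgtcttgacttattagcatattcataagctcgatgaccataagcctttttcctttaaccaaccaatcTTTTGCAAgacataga
Cebpa, chr7:35119043-35119292, plus strand: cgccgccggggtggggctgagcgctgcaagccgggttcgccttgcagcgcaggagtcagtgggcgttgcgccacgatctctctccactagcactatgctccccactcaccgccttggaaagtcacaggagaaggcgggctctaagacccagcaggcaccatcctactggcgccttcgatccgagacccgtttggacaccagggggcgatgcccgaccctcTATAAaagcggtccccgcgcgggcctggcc
Klf15, chr6:90462326-90462575, plus strand: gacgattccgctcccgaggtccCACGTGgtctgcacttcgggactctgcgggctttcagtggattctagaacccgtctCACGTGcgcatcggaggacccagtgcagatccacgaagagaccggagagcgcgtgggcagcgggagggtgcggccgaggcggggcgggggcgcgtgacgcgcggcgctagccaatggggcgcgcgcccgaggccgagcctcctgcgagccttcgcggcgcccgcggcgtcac
The Pparg sequence held TTGCNNAA at bases -215 to -208 and at -16 to -9 from the start site, and neither the other Pparg entries nor those of the other 6 genes held it. Of 32841 RefSeq promoters of this length, 9.57% held it. The Cebpa sequence had TATAA at -30 to -26, a motif found in 22.8% of promoters. The Klf15 sequence had CACGTG at -228 to -223 and at -172 to -167, against 6.02% of promoters with at least 1 match. AGGTCA, present in 14% of promoters, was found at the other 2 start sites of Pparg and at a start site of Rxra. The motifs CACCC (in 52.0% of promoters) and GGGCGG (in 32.7%) were searched too and are not marked. These are matches of letters, and binding was not measured.

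Of the 9 genes, 7 were higher in IMC-treated mice, none was lower, and Cebpb and Cebpd did not pass the test (limma with Benjamini-Hochberg adjustment over all genes, adjusted p under 0.05). The 7 changes ran from 1.12-fold for Nr1h3 to 3.11-fold for Klf14, with Pparg at 1.62-fold. Across all 12787 genes 20% were called higher and 21.0% lower. The median log2 fold change of the 9 genes was 0.35, and that of all genes was -0.03. In 4 genes, Pparg, Rxra, Klf14 and Ebf1, every IMC-treated mouse was above every HFD control mouse, which held for 12.5% of all genes. None of the 9 had the opposite separation, which held for 10.5% of all genes.

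**Figure D1:**
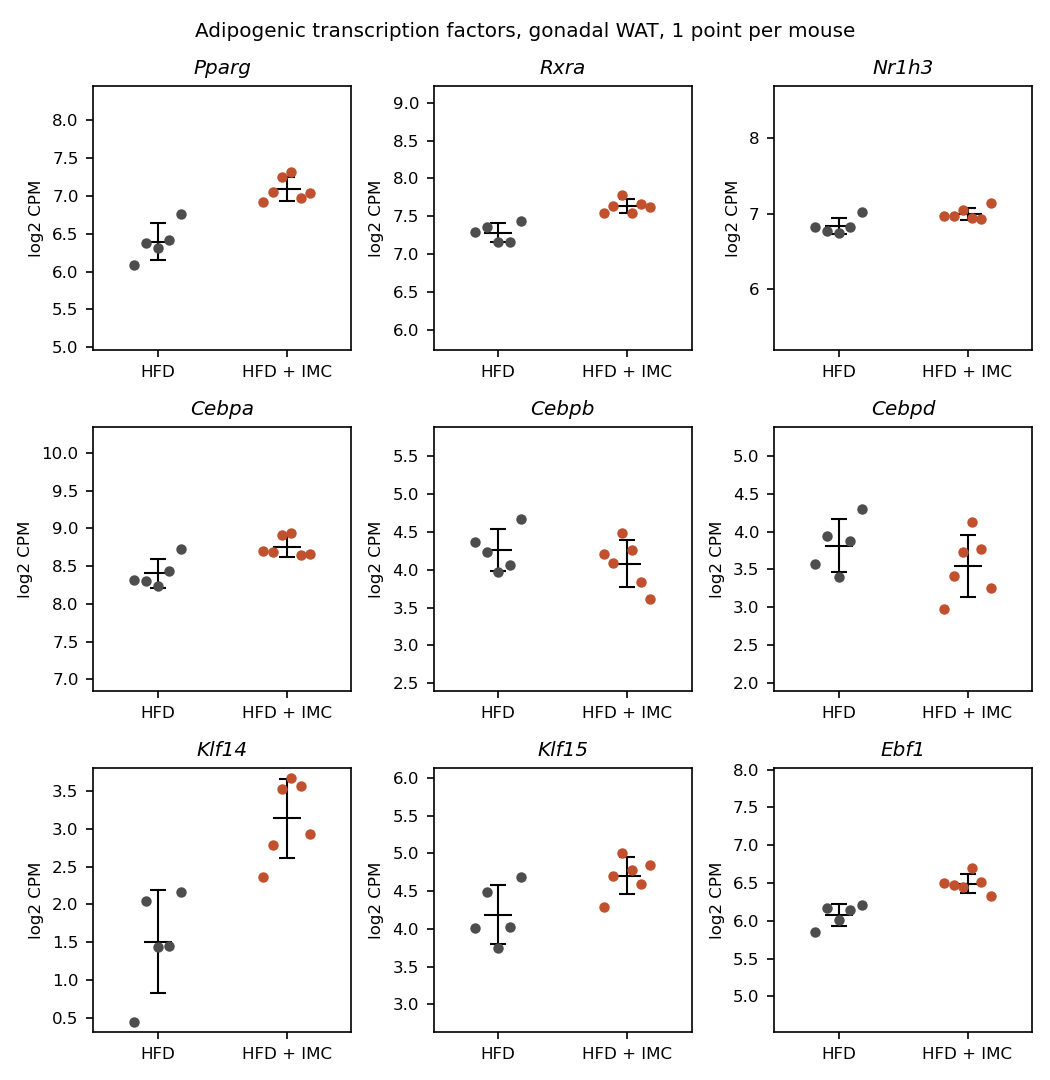
Level of each gene in log2 CPM (vertical axis), with 1 point per mouse for 5 HFD control and 6 IMC-treated mice and bars for the group mean and SD; all panels span the same number of log2 units. The groups are apart for Pparg, Rxra, Klf14 and Ebf1 and overlap for Nr1h3, Cebpa, Cebpb, Cebpd and Klf15.

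Pparg encodes the nuclear receptor that is required for fat cell formation. Its level in HFD control mice 2 to 6 was 6.09, 6.38, 6.31, 6.42 and 6.77 log2 CPM, and in IMC-treated mice it lay between 6.92 and 7.32 with a median of 7.04. The lowest IMC-treated mouse was 0.15 above the highest control, so the groups did not overlap. The log2 fold change was 0.70 ± 0.11 (SE, 95% interval 0.47 to 0.93, adjusted p = 0.000292). A two-sided exact permutation test over the 462 splits of the mice gave p = 0.00216, the smallest value this design allows. The gene lies at chr6:115360951-115490399 on the plus strand (GENCODE M21, GRCm38, ENSMUSG00000000440.12), and its reads came from all its isoforms together. Gonadal WAT is a mixture of cells, and here a smaller or larger share of cells of a type cannot be told apart from less or more RNA per cell.

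Rxra, the partner of PPARγ and LXRα on DNA, was at 7.29, 7.36, 7.16, 7.16 and 7.44 log2 CPM in HFD control mice and between 7.54 and 7.78 in IMC-treated mice, with a median of 7.63. The groups were apart by 0.10. The log2 fold change of Rxra was 0.35 ± 0.06 (adjusted p = 0.000773, exact permutation p = 0.00216), which is 1.27-fold. Nr1h3, the oxysterol receptor gene, stood at 6.82, 6.78, 6.74, 6.82 and 7.02 log2 CPM in controls and between 6.93 and 7.14 in IMC-treated mice, with a median of 6.97. Control mouse 6 was above the median of the IMC-treated mice, and the groups overlapped. The log2 fold change of Nr1h3 was 0.16 ± 0.06 (adjusted p = 0.0340, exact permutation p = 0.0238). This call was lost without HFD control mouse 2, 3, 4 or 5 or IMC-treated mouse 9 or 12 (adjusted p = 0.0626 to 0.0914) and with libraries scaled by total reads (adjusted p = 0.0806).

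The C/EBP genes did not move alike. Cebpa, which acts with PPARγ in the mature fat cell, was at 8.32, 8.31, 8.24, 8.44 and 8.73 log2 CPM in HFD control mice. In IMC-treated mice it ranged from 8.65 to 8.94 with a median of 8.69, and control mouse 6 fell inside that range. The log2 fold change of Cebpa was 0.35 ± 0.09 (adjusted p = 0.00703, exact permutation p = 0.0130), or 1.28-fold. Cebpb, an early factor, was at 4.37, 4.23, 3.97, 4.07 and 4.67 in controls and between 3.61 and 4.48 in IMC-treated mice, with a median of 4.15 log2 CPM. The groups overlapped over most of their range, and the log2 fold change was -0.18 ± 0.15 with a 95% interval from -0.51 to 0.16 (adjusted p = 0.381). For Cebpd, the other early factor, controls were at 3.57, 3.94, 3.39, 3.87 and 4.29 and IMC-treated mice between 2.98 and 4.13, with a median of 3.57 log2 CPM. Its log2 fold change was -0.27 ± 0.20 with a 95% interval from -0.70 to 0.16 (adjusted p = 0.306). These intervals run from a fall to a rise of 0.16 in either gene. They are not adjusted for the number of genes and do not exclude a larger rise. Cebpb and Cebpd are single-exon genes that share 312 and 562 exon bases with Tmem189 and Spidr on the opposite strand, both listed in the table, and the strand setting of the count was not given in the sources used here. Cebpa shares 51 exon bases with the antisense gene Gm45091 and Nr1h3 shares 34 with Gm13783 on its own strand, so small parts of these counts are uncertain too.

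Klf14 showed the largest change of the 9 genes and ranked 7 of 12787 by absolute log2 fold change. It encodes a Krüppel-like factor known as a regulator of fat cell genes. In HFD control mice it was at 0.44, 2.04, 1.43, 1.45 and 2.16 log2 CPM, and in IMC-treated mice it ran from 2.37 to 3.67 with a median of 3.23. Control mouse 2, with 30 reads, was the lowest, and the highest mouse had 291 reads. The lowest IMC-treated mouse was 0.21 above the highest control. The log2 fold change of Klf14 was 1.64 ± 0.31 (95% interval 0.97 to 2.30, adjusted p = 0.00116, exact permutation p = 0.00433). It was 1.37 without control mouse 2 (adjusted p = 0.00205). The gene is a single exon at chr6:30956023-30959078 on the minus strand (ENSMUSG00000073209.4), with no overlapping gene in GENCODE M21.

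Klf15, a Krüppel-like factor induced during fat cell differentiation, was at 4.01, 4.48, 3.75, 4.02 and 4.69 log2 CPM in HFD control mice and between 4.29 and 5.01 in IMC-treated mice, with a median of 4.74. Control mice 3 and 6 were inside the range of the IMC-treated mice. For Klf15 the log2 fold change was 0.52 ± 0.16 (adjusted p = 0.0228, exact permutation p = 0.0325), or 1.43-fold. This call was lost without control mouse 2, 4 or 5 (log2 fold change 0.41 to 0.47, adjusted p = 0.0560 to 0.0638). Ebf1, an early B-cell factor family member that also acts in fat cells, was at 5.85, 6.17, 6.01, 6.14 and 6.21 in controls and between 6.32 and 6.69 in IMC-treated mice, with a median of 6.49 log2 CPM. The groups of Ebf1 were apart by 0.12 and its log2 fold change was 0.42 ± 0.07 (adjusted p = 0.000794, exact permutation p = 0.00216).

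**Figure D2:**
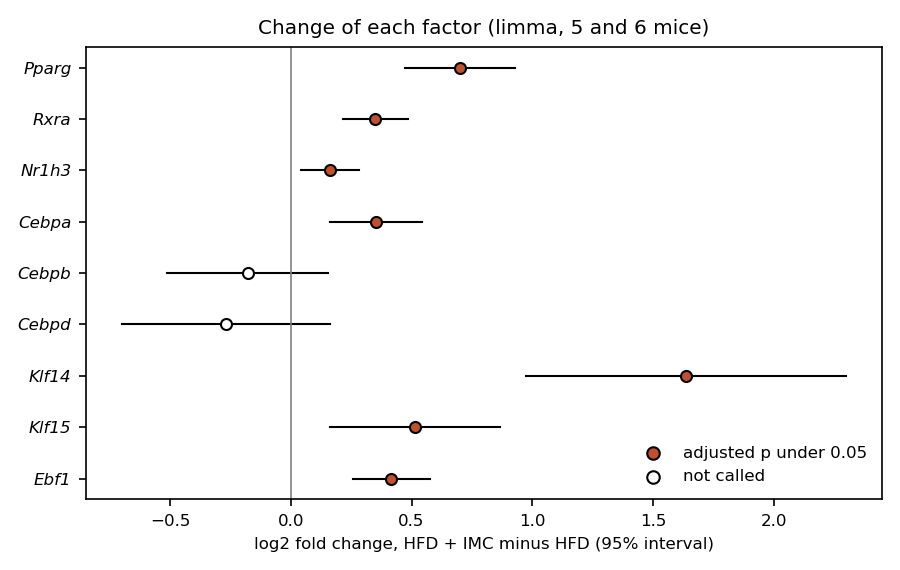
Log2 fold change of each gene, IMC-treated minus HFD control mice (horizontal axis), from limma with its 95% interval, where filled points have an adjusted p under 0.05. The intervals of Cebpb and Cebpd cross 0, and Klf14 lies farthest to the right at 1.64.

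HFD control mouse 6 had the highest level of the control group in all 9 genes, Cebpb and Cebpd included. Its summed level of 6 adipocyte markers was also the highest of the controls, at 12735 CPM against 8878 to 12451 CPM in the other 4. Without this mouse 7 of the 9 genes were still called higher, and the log2 fold change was 0.79 for Pparg, 0.43 for Cebpa, 0.21 for Nr1h3 and 0.64 for Klf15. Among IMC-treated mice, mouse 7 was highest in 5 genes and mouse 12 in 3. Mouse 10 was lowest in 4 genes.

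The balance between partners was compared as the difference of log2 CPM within each mouse, over 5 pairs with p-values adjusted for the 5 tests. Pparg lay below Rxra by a mean difference of -0.89 ± 0.21 (SD) in controls and -0.54 ± 0.17 in IMC-treated mice, a shift of 0.35 (two-sided exact permutation test, adjusted p = 0.00541). Against its fellow RXR partner Nr1h3, Pparg went from -0.45 ± 0.18 to 0.09 ± 0.18, a shift of 0.54 with no overlap between the groups (adjusted exact permutation p = 0.0054). Pparg thus rose more than either receptor gene.
The distance of Cebpa from the early factors widened. Cebpa minus Cebpb was 4.15 ± 0.17 in controls and 4.68 ± 0.23 in IMC-treated mice, without overlap (shift 0.53, adjusted exact permutation p = 0.0054). Cebpa minus Cebpd went from 4.59 ± 0.20 to 5.21 ± 0.34 with overlapping groups (shift 0.62, adjusted exact permutation p = 0.0108).
Klf14 minus Klf15 went from -2.68 ± 0.50 to -1.56 ± 0.41, a shift of 1.12 without overlap (adjusted exact permutation p = 0.0054). Control mouse 2 was the lowest at -3.56, and the 4 other controls lay at or below -2.32, while the IMC-treated mice lay between -1.92 and -1.03. With medians in place of means the shift was 0.83 and missed the threshold (adjusted exact permutation p = 0.0519).

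**Figure D3:**
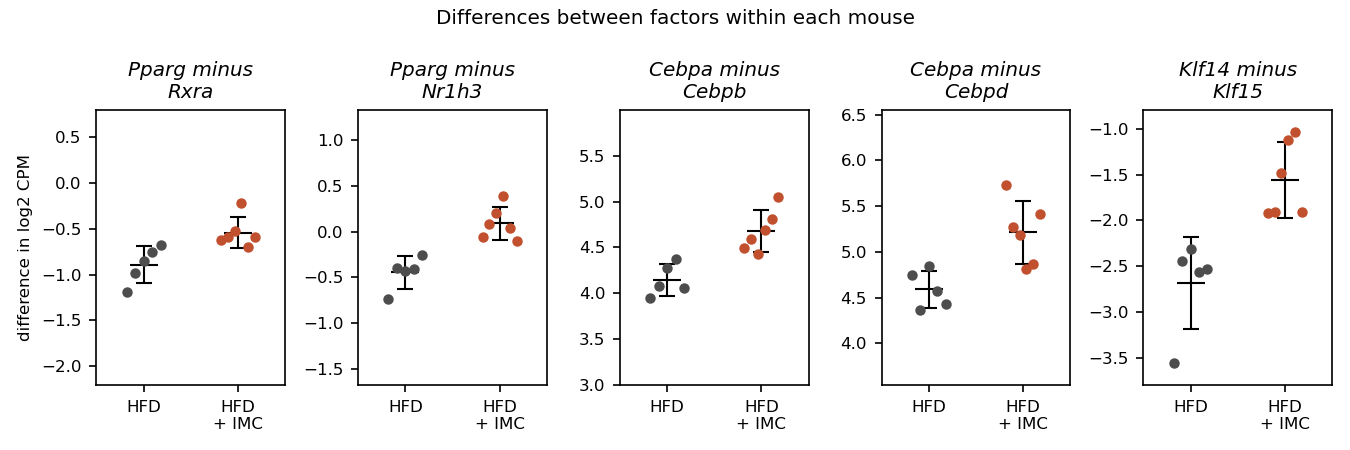
Difference in log2 CPM between the genes of each pair within a mouse (vertical axis), with 1 point per mouse and bars for the group mean and SD in 5 HFD control and 6 IMC-treated mice. The groups are apart for Pparg minus Nr1h3, Cebpa minus Cebpb and Klf14 minus Klf15, and overlap for Pparg minus Rxra and Cebpa minus Cebpd.

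Levels of different genes were compared per kilobase of merged exons in GENCODE M21, which is not the annotation named by the authors. In HFD control mice Cebpa had the highest level, at a mean of 7.01 log2 CPM per kb, followed by Nr1h3 at 5.51, Rxra and Pparg both at 4.83, and Cebpb at 3.67. Lower levels were found for Ebf1 at 2.79, Klf15 at 2.71, Cebpd at 1.91 and Klf14 at -0.10 log2 CPM per kb. The ranges over mice overlapped for the neighbors Rxra and Pparg, Ebf1 and Klf15, and Klf15 and Cebpd, so their order is not resolved.
In IMC-treated mice Cebpa stood at 7.36 and Nr1h3 at 5.67, then Pparg at 5.53 was above Rxra at 5.18 log2 CPM per kb without overlap, whereas Nr1h3 and Pparg overlapped. Cebpb at 3.49, Klf15 at 3.22 and Ebf1 at 3.21 formed overlapping neighbors. Cebpd at 1.64 and Klf14 at 1.53 log2 CPM per kb overlapped as well. Lengths of the longest transcript in place of merged exons put Pparg above Rxra in both groups and raised Ebf1 to 3.50 log2 CPM per kb in HFD control mice and 3.91 in IMC-treated mice, there above Cebpb at 3.49 and Klf15 at 3.39, so the place of Ebf1 depends on the length used.

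**Figure D4:**
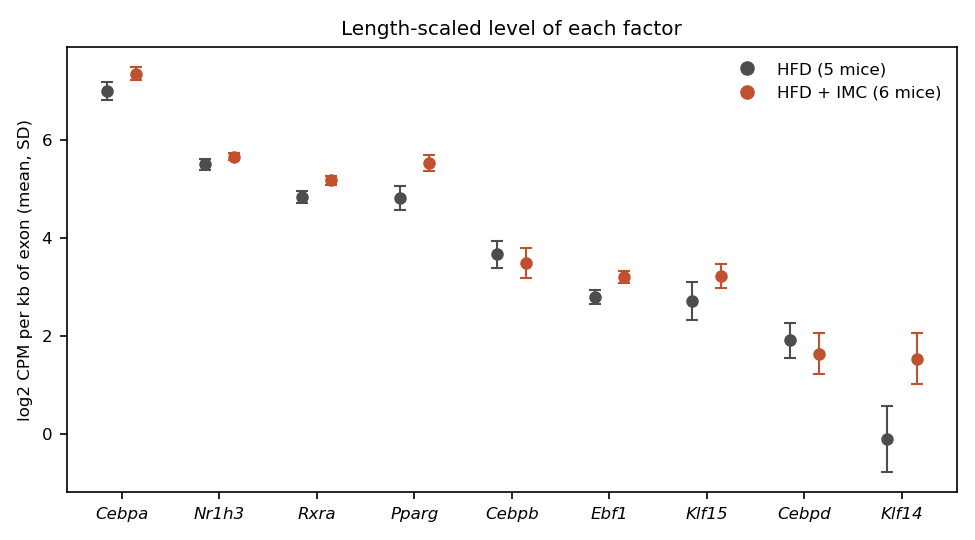
Mean log2 CPM per kb of merged exons for each gene (vertical axis) with SD, in 5 HFD control and 6 IMC-treated mice. Cebpa is highest in both groups, and Klf14 moves from -0.10 to 1.53, next to Cebpd at 1.64.

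The paralogs of the 9 genes did not rise as a group. Of 26 paralogs 21 were listed, and 3 were higher, 7 lower and 11 not called, with a median log2 fold change of -0.04. Rxrg, another RXR gene, rose by 0.88 (adjusted p = 0.00024), Ppara, the receptor that drives fatty acid oxidation genes, by 0.99 (adjusted p = 0.00142), and Ebf3 by 0.54 (adjusted p = 0.00392). Klf2, a factor that restrains Pparg, fell by 0.64 (adjusted p = 0.0041). Also lower were Klf4, Klf6, Klf10, Klf11, Rxrb and Nr1h2, named here after their values were seen, of which Nr1h2 encodes LXRβ. Klf4 was not called with median-of-ratios scaling. It is also on the list of factors promoting adipogenesis, and Klf2 on that of factors restraining it, so the lists are not independent.

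Other factors that promote adipogenesis were 16 of 17 listed, with 5 higher, 4 lower and 7 not called (median 0.0050). Srebf1, the regulator of fatty acid synthesis genes, rose from 7.50 ± 0.18 to 8.29 ± 0.20 log2 CPM (log2 fold change 0.79, adjusted p = 8.95e-05), Zfp423, a factor of preadipocyte commitment, rose by 0.75 (adjusted p = 0.00012), and Stat5a rose by 0.30 (adjusted p = 0.000384). Zfp467 and Nfib were also higher. Creb1, which links cyclic AMP to transcription, fell by 0.23 (adjusted p = 0.00215), and Egr2, Klf4 and Tfe3 were lower too.
Of 25 factors chosen as restraining adipogenesis, a role not tested here, 22 were listed, with 3 higher, 3 lower and 16 not called (median -0.09). Irf3, an interferon regulatory factor, fell by 0.30 (adjusted p = 0.000818), and Klf2 and Zfp521 were lower as well. Hif1a, the oxygen-sensing factor, rose by 0.31 (adjusted p = 0.000971), Rb1, the retinoblastoma gene, by 0.34 (adjusted p = 0.000997), and Foxo1, a target of insulin signaling, was higher too. Zfp467, Nfib, Egr2, Klf4, Tfe3, Zfp521 and Foxo1 were named after their values were seen.

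Coregulators that PPARγ works with were 15 of 16 listed, with 6 higher, none lower and 9 not called (median 0.15). Lpin1, a phosphatidate phosphatase that also acts as a coactivator, rose by 0.74 (adjusted p = 0.000232), and the corepressor gene Nrip1 rose by 0.70 (adjusted p = 0.00111). Prdm16, a determinant of brown and beige fat, rose by 0.79 (adjusted p = 0.00226) from a low level of 2.74 ± 0.36 log2 CPM, and the coactivator gene Ncoa1 rose by 0.26 (adjusted p = 0.000408). Ncoa2 and Ncor1, named after their values were seen, were the other 2 higher genes, and both calls were lost with total-read scaling, which left 4 higher and 1 lower. Ncor1 was also not called with median centering, which left 5 higher.

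A further list held 26 adipocyte genes chosen as targets of PPARγ and C/EBP proteins, and binding was not measured. All 26 were listed, 24 were higher and none was lower. Their median log2 fold change was 0.88, above the change of each of the 9 factor genes other than Klf14. Slc2a4, the insulin-responsive glucose transporter, rose from 4.96 ± 0.38 to 6.21 ± 0.19 log2 CPM (log2 fold change 1.26, adjusted p = 6.07e-05). The adipsin gene Cfd rose by 1.78, the adiponectin gene Adipoq by 1.18, the desaturase gene Scd1 by 1.31 and Pck1, an enzyme of glyceroneogenesis, by 1.30. The genes Lep for leptin (1.04), Plin4 for a lipid droplet coat protein (1.05) and Cidea for a lipid droplet protein (1.15) also had log2 fold changes above 1. Aqp7, the glycerol channel, rose by 0.91, Gpd1 by 0.84 and Dgat2, which makes triglyceride, by 0.91. Lpl and Cd36, named after their values were seen, did not pass the test, with log2 fold changes of 0.15 (adjusted p = 0.315) and 0.03 (adjusted p = 0.825). All IMC-treated mice were nevertheless above all controls for Lpl, at 13.35 to 13.56 against 13.25 to 13.33 log2 CPM, whereas the groups overlapped for Cd36.
LXR target genes split in direction. Of 12 genes 10 were listed, with 5 higher, 4 lower and 1 not called (median 0.12). Srebf1, Scd1, Apoc1 (an apolipoprotein gene, 1.40, adjusted p = 0.00017) and Lpcat3 (a phospholipid acyltransferase gene, 0.21, adjusted p = 0.0022) rose. Of these, Srebf1 is also on the list of factors promoting adipogenesis, and Scd1 on that of the 26 adipocyte genes. Abca1 was called higher at 0.16 (adjusted p = 0.0491) and was not called with total-read scaling, median centering or limma voom. The lower genes were Apoe (-0.38), Abcg1 (-0.29), Pltp (-0.25) and Smpdl3a (-0.23), and these with Abca1 were named after their values were seen.

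**Figure D5:**
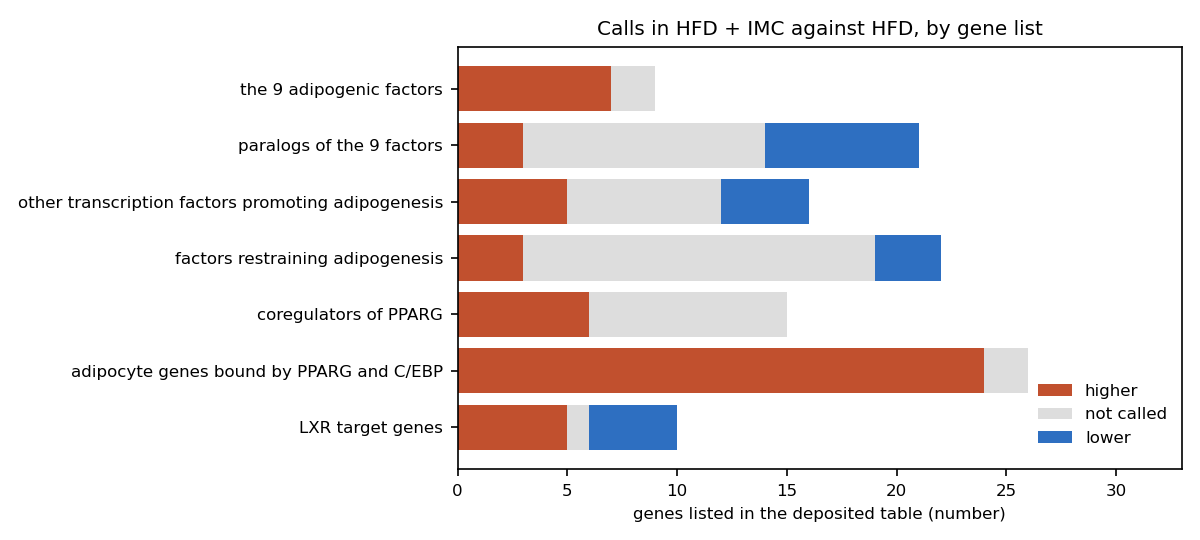
Number of listed genes called higher, not called or called lower in IMC-treated mice (horizontal axis) for the 9 genes and 6 further lists of regulators and targets. The 9 genes have 7 higher calls and the adipocyte genes 24 of 26, while the paralogs have 3 higher and 7 lower.

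Cell type markers moved with these results, and their part in them was not tested. All 6 adipocyte markers were higher, with a summed level of 8878 to 12735 CPM in HFD control mice and 17602 to 21525 CPM in IMC-treated mice, and all 6 are also on the list of 26 adipocyte genes. Of 12 macrophage markers 10 were lower (12586 to 16161 against 7489 to 10733 CPM), as were 5 of 8 progenitor or fibroblast markers (4398 to 5202 against 3282 to 4032 CPM) and 5 of 5 mast cell markers (246 to 537 against 77.1 to 155 CPM). Endothelial markers had 1 of 6 higher (351 to 493 against 430 to 572 CPM) and mesothelial markers 1 of 4 lower (196 to 274 against 92.3 to 221 CPM). Of 8 skeletal muscle markers 3 were listed, and 2 were higher (14.9 to 19.6 against 32.1 to 57.7 CPM). Actn3 was not called, and Myh2 had 9 to 160 reads. Of 6 brown or beige markers 4 were listed, without Ucp1 and Ppargc1a. Of these 4, 2 were higher (11.8 to 17.6 against 15.1 to 23.4 CPM). They were Cox8b and Cidea, which is also on the list of 26 adipocyte genes. Elovl3 and Dio2 did not pass the test, with log2 fold changes of 0.43 and -0.35. These marker genes other than Cidea were named after their values were seen. None of the 5 B cell, 5 T cell or 5 epididymis markers was listed. Depth was alike, with 22320022 to 23635249 reads on listed genes in HFD control mice and 22619505 to 25155366 in IMC-treated mice.

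The genes whose pattern over the 11 mice was nearest were found for the 3 factors with the largest changes, by the root mean square difference of centered log2 CPM. For Klf14 they were Kcnh2 (0.234), Tfr2 (0.235) and Grid1 (0.283). For Pparg they were Nnmt (0.0727), Slc25a10 (0.0942) and Rgcc (0.101), and for Klf15 they were 9330159F19Rik (0.111), Fmo1 (0.116) and Trabd2b (0.147). This measure is a description over mice that share the group difference.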

How the data were processed

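RNA from gonadal WAT was sequenced from directional libraries. Per the labels and the study's methods, reads were trimmed with Trim Galore, checked with FastQC and aligned with STAR to mm10, and the authors removed low transcripts, scaled libraries by upper quartile with edgeR and deposited log2 CPM for 12787 genes. The table's own fold changes, p-values and related statistics were not used. All values (100%) were whole reads plus about 0.25 reads, to within 0.1 reads (largest error 1.29e-07 log2 CPM), so reads were recovered for depth and alternatives. Folds on this scale slightly understate changes of low genes, and reads are not independent molecules.

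Groups were compared with limma 3.58.1 (trend, R 4.3.3) over all genes, and single values by two-sided exact permutation. The script was tested on simulated data. Overlaps and lengths came from GENCODE M21. The paper names UCSC transcript annotations instead, so the exons counted may differ from those behind the lengths and overlaps.

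The 9 genes and all lists were chosen with earlier results of these data known. Genes named are the 9, and in each list the 4 with the smallest p and those of absolute log2 fold change over 1. Genes beyond this rule are marked. Alternatives were 11 single-mouse removals and 9 other settings of variance model, filter, scaling, added reads and limma voom.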

Additional observations from a re-analysis of the deposited data

How the results depend on the processing

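Across 20 alternatives the number of the 9 genes called higher was 5 to 7 (5 to 7 when each mouse was left out in turn, 6 without the limma trend or with total-read scaling), and none was called lower in any. Of 180 values for single genes 169 kept direction and call. The 11 others concern Nr1h3 and Klf15, and for Nr1h3 they include limma without the trend (adjusted p = 0.0508). Of 70 pair values 69 kept theirs, and Klf14 minus Klf15 with medians gave 0.83. The cause was not tested. Total-read scaling moved the median of all genes from -0.03 to -0.06 and the calls from 2556 higher and 2680 lower to 2203 and 3261. No paired analysis was possible because the groups share no mouse numbers. Depth limits Klf14 most, with 30 to 291 reads.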

Other observations

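Relative to the mean log2 CPM of the 6 adipocyte markers in the same mouse, which was higher by 0.92 in IMC-treated mice, the factor genes stood differently, a description chosen after the values were seen and given with no test. The values given are changes of each gene's distance from that mean, IMC-treated minus HFD control mice. A gene that rose by less than 0.92 has a negative value by construction. The marker mean itself did not overlap, at 10.05 to 10.64 log2 CPM in HFD control mice and 11.16 to 11.4 in IMC-treated mice. A gene that did not change can therefore lack overlap on this scale. The share of all genes without overlap on this scale was not computed. Pparg changed by -0.22 and Klf15 by -0.41 with overlapping groups. Rxra (-0.57), Cebpa (-0.57), Ebf1 (-0.51) and Nr1h3 (-0.76) changed without overlap. The early factor genes had the most negative changes on this scale, with Cebpb at -1.10 and Cebpd at -1.19, both without overlap. Neither was called changed in its own level, so these values do not show a fall of either gene. Klf14 was the only one of the 9 with a positive change, at 0.71, with overlapping groups. It still lay farthest below the markers, at -8.84 in HFD control mice and -8.12 in IMC-treated mice.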
